A study of Mus musculus with 2 samples.

Results

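Cluster 14 of the aortic leukocytes was a small group of cells whose pooled transcripts included those of dividing cells and those of immature T lineage cells. Its members were the cells with the number 14 in the deposited clustering, where their deposited name is T cells, and they made up 198 of 7613 cells. The cells came from the aortic arch and thoracic aorta of Apoe-/- mice, which lack apolipoprotein E and develop atherosclerosis. One group of mice received nt-LNA, an agent that the labels give by this name alone, at 30 mg/kg weekly and the other received saline, both during 4 weeks of western diet. The genotype and the diet were thus common to both groups, and each treatment was represented by 1 library of single-cell 3′ RNA sequencing on the 10x Chromium system. The number of mice behind a library is not stated in the sources used here. Live CD45+/CD3- cells had been sorted, a gate that selects leukocytes and removes cells with surface CD3.

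T cells mature in the thymus through stages named by the coreceptors CD4 and CD8. Early cells that lack both coreceptors rearrange the T cell receptor beta, gamma and delta genes, and those with a working beta chain pair it with the pre-T cell receptor alpha chain (Ptcra), divide and begin to make CD4 and CD8. They then leave the cell cycle and rearrange the alpha chain gene with the Rag1 and Rag2 recombinase. Division itself runs on gene sets switched on in order, with the replication genes followed by the mitotic genes.

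The counts were unique molecular identifiers (UMIs), added up within each of 20 clusters without regard to the library. A level is given below in CPM, the count of a gene per 1000000 UMIs of its cluster, with an exact Poisson 95% interval where one is printed, and such intervals cover counting error only. Cluster 14 held 779063 UMIs, so that 1 UMI equalled 1.28 CPM. A floor was set at 3.85 CPM, the equivalent of 3 UMIs, and the exact interval of a count of 0 reached 4.735 CPM. The clusters had been formed from the same expression values, so every gene comparison between clusters is a description without a test. Gene levels could not be split by treatment. Of the barcodes, 2 occurred in both libraries, and 0 of these were in cluster 14.

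All 4 genes named as markers of the cluster were present at high levels. Mki67, which encodes the proliferation antigen Ki-67, stood at 2758 CPM in cluster 14 (2643 to 2878), against 783 CPM in cluster 6, the next highest, and 6.81 CPM in the lowest cluster. Cd3g, a chain of the CD3 complex, stood at 2924 CPM in cluster 14 (2805 to 3047), against 2672 CPM in cluster 13, the next highest. Both genes were highest in cluster 14 among the 20 clusters. Cd8a, a chain of the CD8 coreceptor, reached 1512 CPM in cluster 14, against 1508 CPM in cluster 5, with a ratio whose exact conditional interval was 0.924 to 1.09. Ptcra stood at 175 CPM in cluster 14 (146 to 207), second to 234 CPM in cluster 13. The deposited name T cells went with CD3 and CD8 transcripts, and the description of the cluster as cycling with Mki67. Because the clusters were formed from these same values, the marker levels describe the cluster and are no check of its name. The UMIs per cell of cluster 14 were low but not the lowest, since clusters 2, 5, 9 and 16 had fewer. The presence of Cd3g, Cd3d and Cd3e transcripts in cells sorted as CD3- is a measured fact, and surface protein was not measured in these files.

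**Figure D1:**
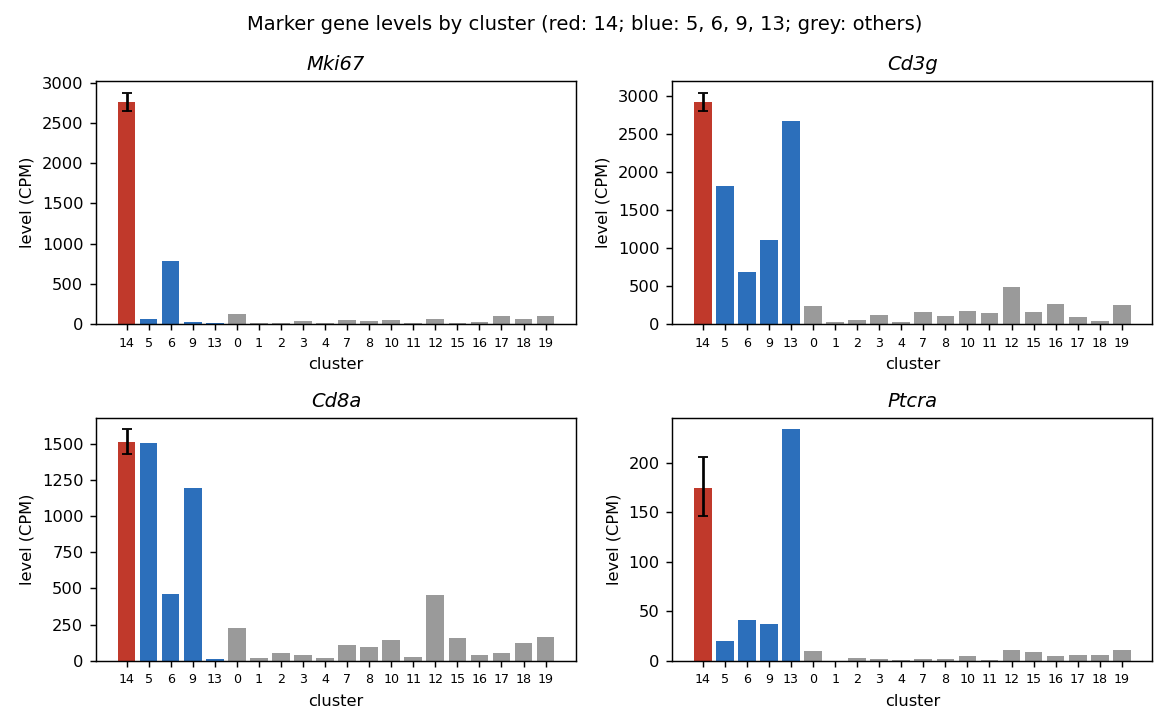
Level of 4 marker genes in each cluster, in CPM, with cluster 14 at the left in red, clusters 5, 6, 9 and 13 in blue and the remaining clusters in grey. Bars are pooled counts of a cluster and the error bar on cluster 14 is an exact Poisson 95% interval. Mki67 stood at 2758 CPM in cluster 14 against 783 CPM in cluster 6, and Ptcra at 175 CPM in cluster 14 against 234 CPM in cluster 13.

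The promoters of 4 genes are shown because the genes come from the 2 leading gene sets of the cluster. Of the 4, Ube2c was higher in cluster 6 than in cluster 14, and Ptcra was higher in cluster 13. Mki67, Cenpf (a kinetochore protein) and Ube2c (the ubiquitin-conjugating enzyme of the anaphase-promoting complex) belong to the mitotic genes, and Ptcra to the T lineage genes. The sequences are the RefSeq windows on GRCm38.p6 from 250 bases before to 50 after the gene start, in the direction of the gene. They are chr7:135716330-135716629 on the minus strand for Mki67, chr1:189688037-189688336 on the minus strand for Cenpf, chr2:164769679-164769978 on the plus strand for Ube2c and chr17:46763663-46763962 on the minus strand for Ptcra. Capitals mark matches on either strand to CCAAT, the box bound by NF-Y, to TTTGAA, the core of the cell cycle genes homology region, and to TTCCCGC, a form of the E2F site.
Mki67: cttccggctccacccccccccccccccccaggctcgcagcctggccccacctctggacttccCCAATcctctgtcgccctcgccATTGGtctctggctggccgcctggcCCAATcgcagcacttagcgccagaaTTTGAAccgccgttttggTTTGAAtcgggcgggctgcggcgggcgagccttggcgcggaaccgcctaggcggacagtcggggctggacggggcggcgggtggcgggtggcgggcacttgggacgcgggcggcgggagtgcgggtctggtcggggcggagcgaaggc
Cenpf: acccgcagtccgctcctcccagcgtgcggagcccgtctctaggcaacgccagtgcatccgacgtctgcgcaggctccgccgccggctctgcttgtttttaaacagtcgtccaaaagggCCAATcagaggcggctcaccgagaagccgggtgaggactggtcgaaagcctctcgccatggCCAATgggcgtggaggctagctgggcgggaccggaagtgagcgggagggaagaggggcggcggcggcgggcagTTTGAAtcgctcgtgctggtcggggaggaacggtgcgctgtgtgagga
Ube2c: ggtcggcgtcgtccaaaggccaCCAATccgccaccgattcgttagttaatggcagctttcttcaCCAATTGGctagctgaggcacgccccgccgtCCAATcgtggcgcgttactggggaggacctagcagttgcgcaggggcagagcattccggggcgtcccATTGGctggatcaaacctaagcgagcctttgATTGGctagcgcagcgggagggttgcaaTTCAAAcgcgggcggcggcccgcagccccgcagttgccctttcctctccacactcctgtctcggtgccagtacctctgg
Ptcra: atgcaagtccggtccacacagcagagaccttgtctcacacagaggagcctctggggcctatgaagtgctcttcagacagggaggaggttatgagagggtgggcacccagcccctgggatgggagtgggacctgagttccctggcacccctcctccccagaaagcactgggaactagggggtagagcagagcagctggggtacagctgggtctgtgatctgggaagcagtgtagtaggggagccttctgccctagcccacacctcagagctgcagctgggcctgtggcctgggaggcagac

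Mki67 held 3 CCAAT and 2 TTTGAA matches, Cenpf held 2 and 1, Ube2c held 6 and 1, and Ptcra held 0 of either. Among the 49 windows of the measured mitosis genes, 77.6% held CCAAT and 69.4% held TTTGAA, against 37.4% and 17.9% of all 32851 windows. Both motifs stood together in 61.2% of the mitosis windows and in 6.95% of all windows. The windows of replication genes had another make-up. TTCCCGC occurred in 14 of 30 of them (46.7%), against 4.60% of all windows, and TTTGAA in 3 of 30. Of the 41 windows of thymocyte stage genes, 17.1% held TTTGAA and 0 held TTCCCGC. A match describes the letters of a window and says nothing of binding.

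Cluster 14 took a larger share of the nt-LNA library than of the saline library. Cluster 14 held 162 of 4871 nt-LNA cells and 36 of 2742 saline cells, which is 3.33% of nt-LNA cells (exact Clopper-Pearson 95% interval 2.84 to 3.87) and 1.31% of saline cells (0.921 to 1.81). The ratio of the shares was 2.53, with an exact conditional interval of 1.76 to 3.74, the highest of the 20 clusters. Cluster 19 came next at 2.48 with 27 cells (0.915 to 8.37), and cluster 5 after it at 2.29 (1.87 to 2.81), so that the intervals of all 3 overlapped. With 1 library per treatment the difference has no replicate check, and no test was made.

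The ratio depended on the cells it was counted against. Among the clusters deposited as T cells, cluster 14 held 11.6% of 1391 nt-LNA cells and 7.58% of 475 saline cells, a ratio of 1.54 (1.07 to 2.27). Among clusters 5, 6, 9, 13 and 14 it held 11.6% of 1400 nt-LNA cells (9.94 to 13.4) and 7.13% of 505 saline cells (5.04 to 9.73), a ratio of 1.62 (1.13 to 2.40). Of those clusters, 5 was itself at a ratio of 2.29, 13 at 1.53, 6 at 1.14 and 9 at 1.11. The ratio was 2.88 (1.999 to 4.26) without clusters 2, 5 and 16, the 3 lowest in UMIs per cell. The part of UMI depth or RNA quality in the difference between libraries was not tested.

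In its mitochondrial and ribosomal protein shares cluster 14 was nearest to clusters 2, 5 and 16, which were also low in UMIs per cell. It had 3935 UMIs per cell, 16th of the 20 clusters, against 22031 in cluster 6, 8891 in cluster 13, 3467 in cluster 9 and 1278 in cluster 5. The 13 mitochondrially encoded genes took 11.2% of its UMIs, the highest share of any cluster, against 10.1% in cluster 2, 8.42% in cluster 16, 7.24% in cluster 5 and 2.93% in cluster 6. Ribosomal protein genes took 9.78%, the lowest share, against 10.0% in cluster 5, 10.8% in cluster 16 and 11.0% in cluster 2. The share was 19.4% in cluster 9, 26.2% in cluster 6 and 28.9% in cluster 13. The nuclear RNA Malat1 took 3.88% of UMIs in cluster 14, against 11.6% in cluster 5 and 1.30% in cluster 6. At an equal 212515 UMIs, 10351 genes were detected in cluster 14, the 4th highest number, against 10356 in cluster 16 and 10486 in cluster 5. These shares enter every CPM below.

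**Figure D2:**
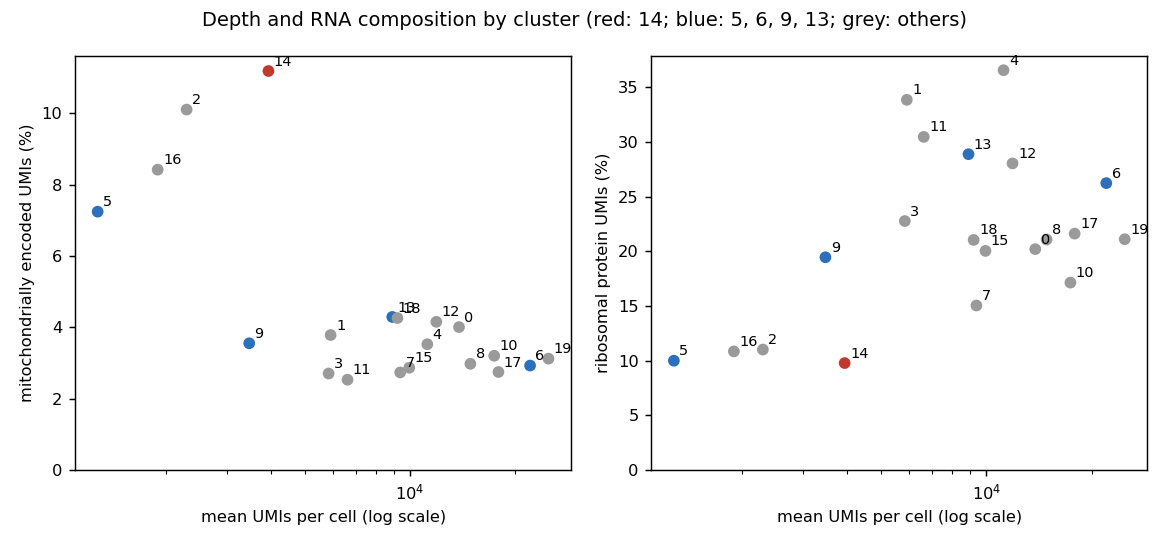
Share of UMIs from mitochondrially encoded genes (left, percent) and from ribosomal protein genes (right, percent) against the mean UMIs per cell (log scale), with 1 point per cluster. Cluster 14, in red, had the highest mitochondrial share (11.2%) and the lowest ribosomal protein share (9.78%).

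Genes were compared as log2 ratios with a pseudocount of 1 CPM. The 8305 genes with a mean of at least 10 CPM over the clusters, cluster 14 included, are called measured. A gene could thus be measured through its level in cluster 14 alone. Against the mean of the other 19 clusters, 18.9% of measured genes in cluster 14 were more than 2-fold higher and 19.1% more than 2-fold lower, with a median log2 ratio of 0.12. Against the mean of clusters 5, 6, 9 and 13, the most similar clusters, 10.6% were over 2-fold higher and 10.1% lower, with a median of -0.01. Against cluster 5 alone, 11.6% were higher and 11.0% lower. Scaling to the upper quartile in place of the total moved these medians by -0.35 and -0.17. The share of genes called higher among all called was then 29.7% against the other clusters, where the total gave 49.7%, and 32.1% against clusters 5, 6, 9 and 13, where it gave 51.2%. Across genes, the profile of cluster 14 correlated most with that of cluster 5 (Pearson 0.86), followed by clusters 6 (0.84), 9 (0.82) and 13 (0.81). The order of clusters 6 and 9 was reversed over the 8060 genes left without cell cycle, mitochondrial and ribosomal protein genes (0.82 for both, 0.824 for cluster 9 and 0.823 for cluster 6).

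**Figure D3:**
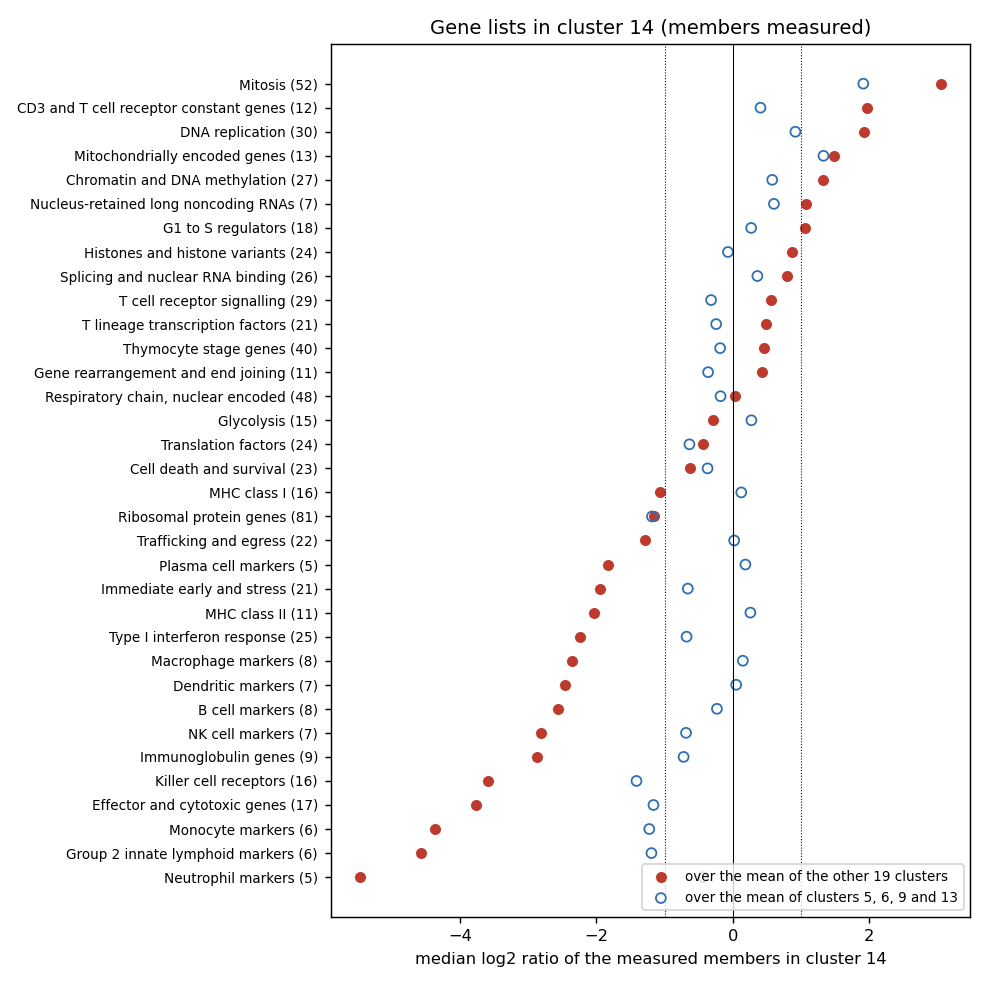
Median log2 ratio of the measured members of each gene list with at least 5 of them, for cluster 14 over the mean of the other 19 clusters (filled) and over the mean of clusters 5, 6, 9 and 13 (open). Dotted lines mark 2-fold. The mitosis list is at 3.06 and 1.91, and the neutrophil list is at -5.47 over the other clusters.

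Mitotic genes were the leading feature of cluster 14. Of 64 listed mitosis genes 52 were measured. Of these, 50 (against 18.9% of all measured genes) were over 2-fold higher than in the other clusters, with a median log2 ratio of 3.06. Members such as Aspm, Nuf2, Cit and Bub1 averaged 8.32, 5.37, 7.21 and 6.46 CPM in the other clusters. They passed the filter of 10 CPM only through cluster 14, so their being higher there was fixed by the filter. Against clusters 5, 6, 9 and 13, 43 of 52 were higher (against 10.6% of all) and 1 lower (against 10.1%), with a median of 1.91. Cenpf stood at 991 CPM in cluster 14, against 377 CPM in cluster 6 and 38.0 CPM in cluster 5. Top2a, the topoisomerase that untangles chromosomes before they separate, stood at 1458 CPM in cluster 14, against 959 CPM in cluster 6 and 70.9 CPM in cluster 5. Aspm, a spindle pole protein, stood at 244 CPM in cluster 14, against 69.5 CPM in cluster 6, and had 0 UMIs in cluster 9. The 1 member over 2-fold lower, against 19.1% of all measured genes, was Pttg1, which encodes securin, with 8.99 CPM in cluster 14 (7 UMIs), the lowest of the 20 clusters, against 20.96 to 64.0 CPM in the others.

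The 20 genes with the largest ratio over the other clusters were all highest in cluster 14 and next highest in cluster 6. Of these, 8 were on the mitosis list, 0 on the replication list and 12 on neither. Ticrr, which is needed to start replication, led with 140 CPM in cluster 14 (115 to 169), a level 41.4 times the mean of 3.38 CPM in the other clusters. Neil3, a DNA glycosylase, had 158 CPM in cluster 14 against a mean of 5.15 CPM in the other clusters. Kifc1 (a spindle motor), Ncapg2 (a condensin II subunit), Spag5 (a spindle protein), Diaph3 (an actin nucleator) and Esco2 (which acetylates cohesin) were also among them, at 122 to 376 CPM. Slc16a1, a lactate and pyruvate transporter, also belonged to the 20, at 390 CPM in cluster 14 against 39.0 to 73.8 CPM in clusters 5, 6, 9 and 13. Arsi, a sulfatase, stood at 117 CPM in cluster 14 against 30.2 CPM in cluster 6. Several of the 20, among them Ticrr, Neil3, Kifc1, Spag5, Diaph3, Esco2 and Arsi, averaged under 10 CPM in the other clusters. They were measured only through cluster 14, so a higher level there was fixed by the filter.

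Replication genes were higher than in most clusters but not than in cluster 6. Of 35 listed genes 30 were measured. Of these, 29 exceeded the mean of the other clusters over 2-fold (median 1.92), against 18.9% of all measured genes. Against cluster 6 alone, 1 of 30 was over 2-fold higher, where 24.6% of all measured genes were, and 3 were lower, against 14.2% of all. Clspn, an adaptor of the replication checkpoint, stood at 331 CPM in cluster 14 against 188 CPM in cluster 6. Tyms, the thymidylate synthase, stood at 317 CPM in cluster 14 against 290 CPM in cluster 6. Dut, the dUTPase, was the other way, with 275 CPM in cluster 14 against 919 CPM in cluster 6. Against the mean of clusters 5, 6, 9 and 13, 12 of 30 were over 2-fold higher (against 10.6% of all) and 0 lower (median 0.92). But the median was -0.08 when those clusters were pooled by counts, where cluster 6 holds most UMIs.

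The regulators of entry into S phase were higher in part. Of 18 measured, 9 were over 2-fold higher than in the other clusters on average (median 1.05), against 18.9% of all measured genes. Lower were 4, near the share of 19.1% among all. The E2F factor E2f2 (187 CPM), the cyclins Ccne1 (44.9 CPM) and Ccne2 (68.0 CPM) and the phosphatase Cdc25a (91.1 CPM) were each highest in cluster 14. The cyclin Ccnd2 was low, with 34.7 CPM in cluster 14, where the other clusters averaged 154 CPM. Ccnd3, the D-type cyclin used by dividing thymocytes, stood at 480 CPM in cluster 14 against 829 CPM in cluster 5. Of the 27 chromatin genes, 20 were over 2-fold higher than in the other clusters (against 18.9% of all) and 0 lower (median 1.32). The inner nuclear membrane receptor Lbr, which had the largest ratio among them to the mean of clusters 5, 6, 9 and 13, stood at 1200 CPM in cluster 14 against 158 to 452 CPM in clusters 5, 6, 9 and 13. Of 24 measured histone genes, 10 were over 2-fold higher than in the other clusters (against 18.9% of all). Against clusters 5, 6, 9 and 13, 1 of 24 was higher, where 10.6% of all were. Histone genes of the Hist1 group are near-identical, so their counts are uncertain. Among them Hist1h2ap had 3494 CPM in cluster 14, against 3850 CPM in cluster 6.

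Clusters 14 and 6 were the 2 clusters with the highest summed level of mitosis genes (14815 CPM in cluster 14 and 11585 CPM in cluster 6). Set against cluster 6 alone, 24.6% of all measured genes were over 2-fold higher in cluster 14 and 14.2% lower (median 0.25). Of the 52 mitosis genes, 11 were over 2-fold higher and 6 lower, with a median of 0.31. As a set they thus differed between the 2 clusters about as often as all measured genes did. Mki67 was 3.52 times as high in cluster 14 as in cluster 6 (exact conditional interval 3.36 to 3.70), Aspm 3.51 times (2.98 to 4.12) and Cenpf 2.63 times (2.43 to 2.84). On the other side, Ube2c stood at 178 CPM in cluster 14 against 665 CPM in cluster 6, a ratio of 0.268 (0.225 to 0.317). Birc5, which encodes survivin, stood at 212 CPM in cluster 14 against 566 CPM in cluster 6, and Cks2, a subunit of the cyclin-dependent kinases, at 109 CPM against 396 CPM. Ube2c and Mki67 thus lay on opposite sides. Both their promoters hold CCAAT and TTTGAA, and a relation of these motifs to the levels was not tested.

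Transcript length moved with the ratio of cluster 14 over cluster 6. Among the 52 mitosis genes the log2 ratio of cluster 14 over cluster 6 had a Spearman correlation of 0.69 with the length of the longest annotated transcript, a description across genes that share 2 libraries. In the longer 26 genes, 8 were over 2-fold higher and 0 lower (median 0.54), and in the shorter 26 genes, 3 were higher and 6 lower (median -0.20). Cenpf, Mki67 and Aspm have the longest transcripts of the list (11130, 10061 and 9867 nt). Cks2 and Ube2c are short (692 and 2191 nt). The same relation held over the 8243 measured genes with a length, where the correlation was 0.43. Genes over 2-fold higher in cluster 14 than in cluster 6 had a median length of 4265 nt, against 3427 nt over all genes. The relation to cluster 6 was not particular to cluster 14. Set against cluster 6, cluster 5 had a correlation of 0.43, cluster 2 of 0.35 and cluster 16 of 0.34. Cluster 9 had 0.27 and cluster 13 had 0.18. Over the mean of its other clusters, cluster 14 had a correlation of 0.26. Of the clusters with fewer UMIs per cell, cluster 5 had 0.37, cluster 2 had 0.36, cluster 16 had 0.33 and cluster 9 had 0.08. Clusters 13 and 6, which had more, were at -0.07 and -0.20. The part of length in the difference between clusters 14 and 6 was not tested.

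**Figure D4:**
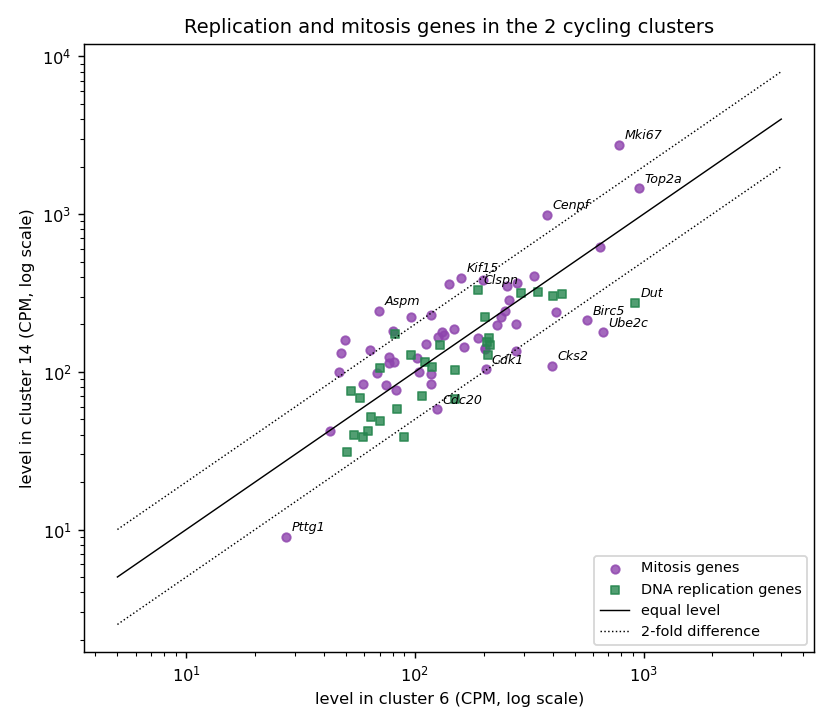
Level of each measured mitosis gene (circles) and DNA replication gene (squares) in cluster 14 (vertical axis, CPM, log scale) and cluster 6 (horizontal axis, CPM, log scale). The solid line marks equal levels and the dotted lines 2-fold. Mki67, Cenpf, Aspm and Kif15 are among those above the upper dotted line, and Ube2c, Birc5, Cks2, Cdc20, Pttg1 and Dut are among those below the lower one.

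The CD3 and T cell receptor genes were high in cluster 14. All 12 listed genes were measured, and 8 exceeded the mean of the other clusters over 2-fold, against 18.9% of all measured genes. Lower was 1, against 19.1% of all (median 1.97). Cd3d and Cd3e stood at 1828 and 1100 CPM in cluster 14, each second to cluster 5 with 1856 and 1331 CPM. Cd247, the zeta chain, stood at 386 CPM in cluster 14 against 441 CPM in cluster 5. The constant genes of the receptor differed. The beta constant genes Trbc1 and Trbc2, whose counts are uncertain because the genes are near-identical, stood at 3167 and 3684 CPM in cluster 14. Trac, the alpha constant gene, stood at 118 CPM in cluster 14 (95.2 to 145), against 581 CPM in cluster 5, 530 CPM in cluster 9, 71.7 CPM in cluster 6 and 4.13 CPM in cluster 13. Trdc, the delta constant gene, was highest in cluster 14 at 395 CPM (352 to 442), against 254 CPM in cluster 13, 179 CPM in cluster 6, 58.2 CPM in cluster 5 and 53.7 CPM in cluster 9. Trdc lies inside the alpha locus, so its reads may be shared with alpha transcripts. The gamma constant genes, which are also near-identical, were far below cluster 13 and above clusters 5 and 9. Tcrg-C2 stood at 33.4 CPM in cluster 14, against 496 CPM in cluster 13, and was 8.79 times as high as in cluster 5 (2.69 to 45.4) and 13.9 times as high as in cluster 9 (4.25 to 71.7), each with 3 UMIs there.

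The variable genes were counted by chain. The 128 alpha variable genes together had 62.9 CPM in cluster 14, against 172 CPM in cluster 5, 127 CPM in cluster 9, 13.97 CPM in cluster 6 and 11.0 CPM in cluster 13. The delta variable genes together had 74.4 CPM in cluster 14, the highest of the 5 clusters, against 46.8 CPM in cluster 5 and 2.75 CPM in cluster 13. The beta variable genes together had 89.9 CPM in cluster 14 and 91.2 CPM in cluster 5. These sums rest on 49 alpha, 58 delta and 70 beta UMIs in cluster 14.

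Among the genes that mark thymocyte stages, cluster 14 stood between cluster 13 on one side and clusters 5 and 9 on the other for some genes and beyond both for others. Of 45 listed genes 44 were in the table and 40 measured. Of these, 15 were over 2-fold higher (against 18.9% of all measured genes) and 13 lower (against 19.1%) than in the other clusters (median 0.45). Against the mean of clusters 5, 6, 9 and 13, 2 were higher (against 10.6% of all) and 7 lower (against 10.1%). The median was then -0.19. The Cd8 genes were near the levels of clusters 5 and 9, and Cd4 was below both. Cd8b1 stood at 2716 CPM in cluster 14, against 3355 CPM in cluster 5, 2332 CPM in cluster 9, 674 CPM in cluster 6 and 29.4 CPM in cluster 13. Cd4 stood at 345 CPM in cluster 14, against 839 CPM in cluster 5, 465 CPM in cluster 9, 67.9 CPM in cluster 6 and 3.67 CPM in cluster 13. Whether the same cells held Cd4 and Cd8a cannot be read from pooled counts.

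The genes of the earlier stage were shared with cluster 13 in part. Notch1, the receptor that commits cells to the T lineage, stood at 227 CPM in cluster 14, against 357 CPM in cluster 13, 63.4 CPM in cluster 6, 59.5 CPM in cluster 5 and 41.7 CPM in cluster 9. Ptcra was 8.62 times as high in cluster 14 as in cluster 5 (5.12 to 15.5) and 4.74 times as high as in cluster 9 (3.37 to 6.77), but 0.746 times as high as in cluster 13 (0.613 to 0.903). The Notch target Hes1 and the interleukin-2 receptor chain Il2ra lay far below cluster 13 and above clusters 5 and 9. Hes1 stood at 57.8 CPM in cluster 14 against 709 CPM in cluster 13, and Il2ra at 47.5 CPM in cluster 14 against 437 CPM in cluster 13. Il2ra was 5.36 times as high in cluster 14 as in cluster 5 (2.36 to 14.2) and 19.8 times as high as in cluster 9 (6.26 to 100.2, on 3 UMIs in cluster 9). Hes1 was 2.53 times as high as in cluster 5 (1.44 to 4.65) and 2.57 times as high as in cluster 9 (1.57 to 4.29).

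Rag1 and Dntt were lower in cluster 14 than in clusters 5 and 9, while the list of rearrangement and end joining genes went both ways. Rag1, a subunit of the recombinase, stood at 339 CPM in cluster 14 (299 to 382), against 1123 CPM in cluster 5, 1657 CPM in cluster 9, 233 CPM in cluster 13 and 204 CPM in cluster 6. Dntt, which adds bases at the joints, stood at 291 CPM in cluster 14, against 401 CPM in cluster 5, 761 CPM in cluster 6, 1203 CPM in cluster 9 and 1172 CPM in cluster 13. Of the 11 measured genes of rearrangement and end joining, 2 were over 2-fold lower (Rag1 and Dntt) than the mean of clusters 5, 6, 9 and 13. Higher were 2, the DNA damage kinases Atm and Prkdc. Among all measured genes, 10.1% were lower and 10.6% higher. Atm was 2.33 times as high as in cluster 5 (1.35 to 4.16) and 4.61 times as high as in cluster 9 (2.56 to 8.71). Against cluster 5 alone, 6 of the 40 measured thymocyte stage genes were over 2-fold higher (against 11.6% of all) and 14 lower (against 11.0%). The median was -0.40. Among the lower were the chemokine receptor Ccr9, at 429 CPM in cluster 14 against 1764 CPM in cluster 5, and Themis, an adaptor of receptor signalling, at 317 CPM in cluster 14 against 824 CPM in cluster 5. Of 22 measured trafficking and egress genes 0 were over 2-fold higher (against 18.9% of all) and 11 lower (against 19.1%) than in the other clusters. Among the lower were the egress receptor S1pr1 at 11.6 CPM and its activator Klf2 at 114 CPM in cluster 14. Against clusters 5, 6, 9 and 13, 4 of 22 were higher (against 10.6% of all) and 3 lower (against 10.1%, median 0.02).

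**Figure D5:**
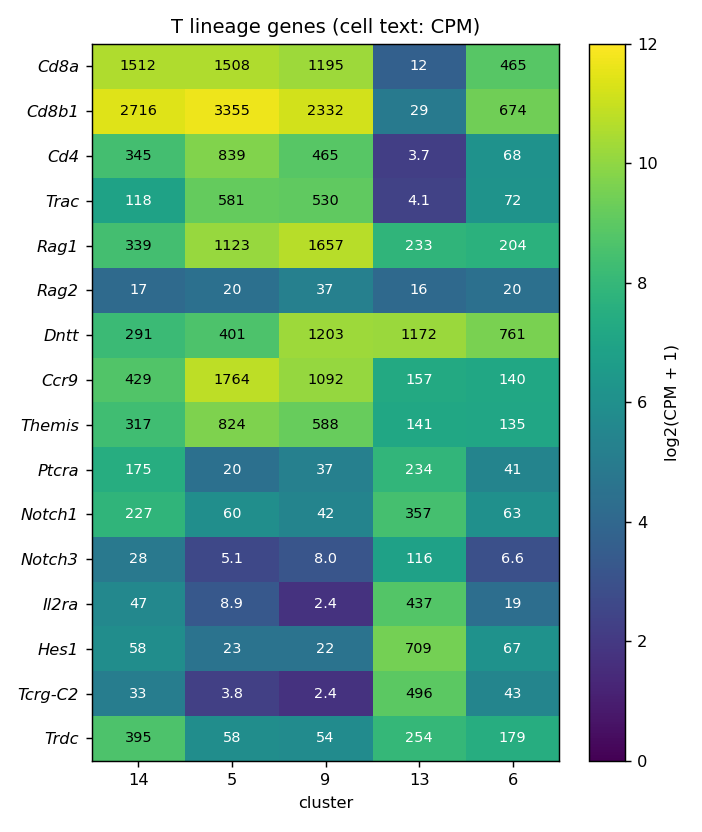
Level of T lineage genes in cluster 14 (left column), clusters 5, 9 and 13, and cluster 6, with CPM written in each cell and colour showing log2(CPM + 1). Cluster 14 holds Cd8a (1512 CPM) and Cd8b1 (2716 CPM) at levels near those of cluster 5, Ptcra (175 CPM) and Notch1 (227 CPM) nearer to cluster 13, and Trdc (395 CPM) above all 4.

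The transcription factors and signalling genes of the lineage differed with the clusters they were set against. Of 21 measured factors, 7 were over 2-fold higher (against 18.9% of all measured genes) and 4 lower (against 19.1%) than in the other clusters. Satb1 (1248 CPM), Tcf7 (850 CPM), Bcl11b (725 CPM), Myb (599 CPM) and Sox4 (539 CPM), regulators of early T cells, had the most UMIs among those higher. Against clusters 5, 6, 9 and 13, 0 factors were higher (against 10.6% of all) and 2, Id2 and Gata3, lower (against 10.1%). Of the 29 measured signalling genes 8 were over 2-fold higher (against 18.9% of all) and 5 lower (against 19.1%) than in the other clusters. Against clusters 5, 6, 9 and 13, 1 was higher (against 10.6% of all) and 1 lower (against 10.1%). Taken singly, 12 of 29 were lower than in cluster 5, against 11.0% of all measured genes (median -0.66). Higher than in cluster 6 were 15, against 24.6% of all (median 1.04), and higher than in cluster 13 were 10, against 22.5% of all. The adaptor Lat stood at 954 CPM, the kinase Lck at 599 CPM and the costimulatory receptors Cd27 and Cd28 at 521 and 513 CPM in cluster 14. Ptprc, which encodes CD45, had 1416 CPM in cluster 14, where the other clusters averaged 871 CPM.

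Genes of mature effector cells were low against the average of the other clusters, less so against the 4 similar clusters. Of 17 measured effector genes 0 were over 2-fold higher and 15 lower than the average of the other clusters (median -3.77). All 16 measured killer cell receptors were lower (median -3.59), where 19.1% of all measured genes were. Against clusters 5, 6, 9 and 13, 10 of 17 effector genes were lower and 2 higher (median -1.16). Of the receptors, 9 of 16 were lower and 0 higher (median -1.41). Among all measured genes, 10.1% were lower and 10.6% higher. The median was 0.24 for the receptors and 0.15 for the effector genes against cluster 9 alone, and 0.89 and -0.31 against cluster 13 alone. Gzmb, a granzyme of cytotoxic cells, had 0 UMIs in cluster 14 against 1828 CPM in the NK cell cluster 3. Gzma, another granzyme, stood at 1172 CPM in cluster 14 (1097 to 1251), second to 13011 CPM in cluster 3. Against the similar clusters, Gzma was 6.52 times as high as in cluster 5 (5.46 to 7.84), 6.96 times as in cluster 9 (5.99 to 8.13), 3.23 times as in cluster 13 (2.93 to 3.55) and 2.06 times as in cluster 6 (1.92 to 2.21). Of the 7 measured NK cell markers, which include Gzma, 6 were over 2-fold lower than in the other clusters on average, and 1 was higher and 2 lower than in clusters 5, 6, 9 and 13. Nkg7, a granule protein, had 32 UMIs in cluster 14 and was 7.32 times as high as in cluster 9 (3.17 to 19.7) but 0.198 times as high as in cluster 13 (0.134 to 0.284). The chemokine Ccl5 had 97 UMIs in cluster 14 and was 3.31 times as high as in cluster 9 (2.31 to 4.79) and 6.03 times as high as in cluster 13 (4.19 to 8.79).

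Among the cell death and survival genes, 10 of 23 measured were over 2-fold lower than the average of the other clusters (against 19.1% of all measured genes). Higher were 2, against 18.9% of all (median -0.63). Set against clusters 5, 6, 9 and 13, 4 of 23 were lower (against 10.1% of all) and 0 higher (median -0.37). For cluster 5 alone, 4 were lower (against 11.0% of all) and 1 higher (median -0.17). Mcl1, a survival protein, was lowest of all clusters in cluster 14, at 171 CPM against 202 to 1108 CPM in the others. Bbc3, which encodes the death inducer PUMA, was also lowest in cluster 14, with 2 UMIs. Bcl2l11, which encodes BIM, stood at 341 CPM in cluster 14 against 909 CPM in cluster 5. The death receptor Fas was among those higher than the average of the other clusters, at 96.3 CPM in cluster 14.

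Interferon response and immediate early genes were low against the average of the other clusters. Of 25 measured interferon response genes 20 were over 2-fold lower than the average of the other clusters, against 19.1% of all measured genes. Higher was 1, against 18.9% of all (median -2.24). The higher one was Ly6e, a surface protein of thymocytes, at 3547 CPM in cluster 14, the highest of the 20 clusters, against 2573 CPM in cluster 2. Isg20 had 0 UMIs in cluster 14 and 7.20 to 60.3 CPM in the others. Of 21 measured immediate early and stress genes 18 were lower, against 19.1% of all (median -1.95). Their summed level of 4149 CPM was the lowest of all clusters, next to 4785 CPM in cluster 5. Against clusters 5, 6, 9 and 13, 10 of 25 interferon response genes and 4 of 21 immediate early genes were lower. Among all measured genes, 10.1% were. Against cluster 5 alone 6 of 25 and 2 of 21 were lower, where 11.0% of all were. The immediate early genes were thus near the share of all genes there. Within antigen presentation, 8 of 16 measured class I genes were lower than in the other clusters, against 19.1% of all. Higher was 1, against 18.9% (median -1.06). Set against clusters 5, 6, 9 and 13, 1 was lower (against 10.1%) and 2 higher (against 10.6%). The median was then 0.12, and -0.09 under upper-quartile scaling. Against cluster 9 alone 8 of 16 were over 2-fold higher, where 18.1% of all measured genes were (median 1.08). The higher one, Tap2, a subunit of the peptide transporter, was highest in cluster 14 at 666 CPM against 328 CPM in cluster 5. Of those lower than in the other clusters, H2-K1 stood at 417 CPM and B2m at 743 CPM in cluster 14.

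Markers of the other leukocytes that the sort could hold were low against the average of the other clusters but mostly detected. All 8 B cell and all 8 macrophage markers were over 2-fold lower than in the other clusters (against 19.1% of all measured genes). So were 6 of 6 monocyte and 5 of 5 measured neutrophil markers. The summed level of B cell markers was 415 CPM in cluster 14, and 260 to 13799 CPM in the others. That of macrophage markers was 199 CPM in cluster 14, and 33.1 to 7222 CPM in the others. Against clusters 5, 6, 9 and 13, 0 B cell, 0 macrophage and 0 neutrophil markers were over 2-fold lower, but 4 of 6 monocyte markers were. All 8 macrophage markers were over 2-fold higher than in cluster 13 (median 1.93). Cd79a stood at 154 CPM in cluster 14 and 84.9 to 294 CPM in clusters 5, 6, 9 and 13, and C1qa at 52.6 CPM in cluster 14 and 10.6 to 79.4 CPM in those 4. Macrophage markers were not lower than in the low-UMI clusters 2, 5 and 16, where their median log2 ratio was 0.25. Ly6g, Ace, Klra7, Zbtb46 and Siglech had 0 UMIs in cluster 14. The part of RNA from other cells in these levels was not tested. Apoe, which the mice lack, had 1 UMI in cluster 14.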

How the data were processed

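The deposited counts are whole-number UMIs per gene, which the authors added up within each of 20 clusters regardless of library. A deposited table gives each cell's cluster and name, and its library was read from the start of the cell name. Cell Ranger 2.1.1, Seurat and the build mm9 are named per the submitters' processing notes. Cell filters, clustering settings and the treatment of doublets are not stated in the sources used here.

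Intervals are at 95% and cover counting error only (exact Poisson for CPM, exact conditional for ratios, exact Clopper-Pearson for shares). CPM was computed from the deposited counts. Each of the 8305 genes with a mean of at least 10 CPM was compared as log2((CPM + 1)/(mean CPM of the comparison clusters + 1)), and called past 2-fold. With 1 library per treatment and pooled clusters, neither tests nor p-values were computed. Named genes were the 4 markers, the 20 with the largest ratio over the other clusters (at least 50 UMIs), the 10 at either end against clusters 5, 6, 9 and 13, members of 38 gene lists with at least 20 UMIs in cluster 14 or a mean of 25 CPM, the 2 members of each list with the largest ratios and the 2 with the most UMIs, and Ptprc, Apoe, Malat1 and Xist. Marker genes with 0 UMIs were named after their values were seen. Members and lists were chosen with earlier results of these data known. Transcript lengths are from GENCODE M21 (99.3% of measured genes matched by symbol). RefSeq promoter windows on GRCm38.p6 matched 46 of 52 mitosis, 26 of 30 replication and 28 of 40 thymocyte stage genes. Reads of near-identical genes, such as Trbc1 and Trbc2, could be split between them in the authors' counts.

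The tools were scipy 1.17.1, pandas 2.3.3, numpy 2.4.6, matplotlib 3.10.9 and Python 3.11.15, and the calculations were tested on simulated counts. The 28 alternatives planned and 2 added after seeing the data are in the closing part.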

Additional observations from a re-analysis of the deposited data

How the results depend on the processing

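The ratio of cluster 14 shares, nt-LNA over saline, was 2.53 over all cells, 1.54 within the clusters deposited as T cells and 1.62 within clusters 5, 6, 9, 13 and 14. Against the other clusters, 1566 genes were over 2-fold higher and 1586 lower, with 2895 and 2867 without a filter, 936 and 1053 at 25 CPM, and 930 higher under upper-quartile scaling. Lists with a median over 2-fold higher numbered 7, and 4 under upper-quartile scaling. Against clusters 5, 6, 9 and 13, 880 genes were higher and 839 lower, with 1936 and 1772 without a filter and 492 and 554 at 25 CPM. The lower count was 495 with a pseudocount of 5 CPM and 1284 under upper-quartile scaling, and the higher count was 1417 with pooled counts as the comparison, which moved the median of all genes by 0.15. Lists with a median over 2-fold lower numbered 6, against 1 with a pseudocount of 5 CPM and 2 without cluster 6. The macrophage list turned to 0.25 and Gm4632 to 0.84 when the comparison was clusters 2, 5 and 16 only, an alternative chosen after seeing the data (-2.36 and -2.92 over the other clusters). The red cell list turned to 0.22 at 25 CPM (-1.60 at 10 CPM, 2 members measured). Apart from the filters, where fewer or more genes enter, the cause was not tested.

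Of the other values, 947 kept their size and sign, 357 moved and 3 reversed. No paired analysis was possible because each treatment had 1 library and no test was made. The 779063 UMIs of cluster 14 limit genes under 3.85 CPM, and intervals do not cover differences between animals, libraries or clusterings.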

Other observations

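The mitochondrially encoded genes were higher in cluster 14 as a group. All 13 exceeded the mean of the other clusters over 2-fold (median log2 ratio 1.48) and likewise that of clusters 5, 6, 9 and 13 (1.33), and 3 of 13 were over 2-fold higher than in cluster 5. The subunit mt-Nd6, the one protein-coding mitochondrial gene on the light strand, stood at 214 CPM in cluster 14 against 110 CPM in cluster 2. The nuclear-encoded subunits of the same chain did not share one direction, with 11 of 48 over 2-fold higher, near the 18.9% of all measured genes, and 1 lower than in the other clusters (median 0.03, and -0.36 under upper-quartile scaling). Cox6a1 (816 CPM) and Ndufa4 (1409 CPM) were among the higher, and Atp5e (312 CPM) was the lower one. Glycolysis genes stayed near the other clusters, with 0 of 15 higher and 1 lower.

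The ribosomal protein genes went the other way, with 0 of 81 measured over 2-fold higher and 61 lower than in the other clusters (median -1.15), but 0 of 81 lower than in cluster 5 (median -0.07). Translation factors were mixed, with Eef1a1 at 1818 CPM and Tpt1 at 1983 CPM in cluster 14 each over 2-fold lower than the average of the other clusters, and the nucleolar protein Nop56 at 356 CPM over 2-fold higher. Nuclear noncoding RNAs were higher for 4 of 7 measured (median 1.07), with Xist at 6955 CPM in cluster 14, the highest of the 20 clusters, against 4362 CPM in cluster 5. Of 26 splicing and nuclear RNA binding genes 10 were over 2-fold higher than in the other clusters (against 18.9% of all measured genes) and 0 lower. Against clusters 5, 6, 9 and 13, 0 of 26 were higher and 0 lower (median 0.36), and the same held against cluster 5 alone (median -0.08).

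Among the genes lowest against clusters 5, 6, 9 and 13, Akr1c13, Mcpt4, Smim5, Ifi44, Fbxo6 and Plscr1 had 0 UMIs in cluster 14. Lpl, the lipoprotein lipase, was among the 10 with the largest ratio over those clusters, at 71.9 CPM in cluster 14 (54.3 to 93.3) against 0.459 to 12.7 CPM in the 4, and 263 CPM in cluster 0. Ulbp1, a ligand of the NKG2D receptor, stood at 110 CPM in cluster 14 and 4.81 to 23.9 CPM in the 4.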
